A study of Zea mays subsp. mays with 2 samples.

Results

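The loci described here were abundant in maize endosperm of both genotypes and differed by no more than 2-fold between them. They are rows of the expression tables on chromosomes 1 to 10 with a span (end minus start) of 300 bp or more, at least 100 FPKM in dek2 and in WT, and a dek2/WT ratio between 0.5 and 2. FPKM counts sequenced fragments relative to the length of the transcript and the size of the library. For the level limit and the ratio, dek2 FPKM was first divided by 1.503, which is the median dek2/WT ratio over 22250 rows with at least 1 FPKM in dek2 and in WT, and is called scaled. The rule selected 558 of 45157 rows, at 550 distinct coordinates. It used the level and the ratio of the rows, so both are given below as a description, without a test.

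The study compared endosperm RNA of the dek2 mutant with that of wild type (WT) at 15 days after pollination. The design text speaks of triplicates, but each genotype has 1 sample and 1 table here. No label or header says whether it is 1 library, a pool or a mean, so that n = 1 for each and replicate error is unknown. Every difference is therefore between these 2 tables and carries no p-value. The strain, the allele and the number of plants are unknown here. The source label names the kernel and the tissue label the endosperm. The tables give positions without gene names, so that neither the tissue nor the mutated gene could be checked against a marker, and no function is assigned to any locus.

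Endosperm is the tissue of the maize kernel that stores starch and protein. During grain filling its RNA is dominated by transcripts of storage proteins, which belong to families of neighbouring gene copies. Transcripts needed by every cell, such as those for ribosomes, translation, protein folding and energy metabolism, form another abundant part of most plant transcriptomes. The Dek2 gene is known to encode a pentatricopeptide repeat protein, a kind of RNA-binding protein of organelles, needed for splicing in mitochondria. None of these classes can be recognised from a position alone.

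The steady abundant loci took up a larger share of the dek2 library than of the WT library. They made up 1.24% of all rows and held 22.6% of the summed FPKM in dek2, against 13.1% in WT, a 1.72-fold higher share. The sum of their deposited values was 242130 FPKM in dek2 against 149412 FPKM in WT, a ratio of 1.62. After scaling, the ratio of these sums was 1.08. Their steadiness is thus relative to the median row. Over all rows the summed FPKM was 1.07e+06 in dek2 and 1.14e+06 in WT, so that a row at the median ratio also had a larger share in dek2. The larger share of the members therefore follows in large part from the rule. On the deposited values 521 of the 558 had a higher level in dek2 and 37 a lower one, 148 were more than 2-fold higher, and none was 2-fold lower. With the factor of 1.503, the limits on the scaled ratio left no room for a member 2-fold lower on these values. The same factor tilts the other counts toward dek2, so they are a description of the rule and no trait of the members. In bulk tissue, fewer cells of a type and less RNA per cell cannot be told apart.

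The changed abundant rows with the same limits on span and chromosome were separated from the members by their ratio. Their shares are therefore given as a description. The 253 rows at 100 FPKM or more in WT that were over 2-fold lower in dek2 held 4.81% of dek2 FPKM and 51.5% of WT FPKM. The 248 rows at 100 FPKM or more in scaled dek2 that were over 2-fold higher there held 16.9% in dek2 and 2.39% in WT. The 44098 remaining rows held 55.8% in dek2 and 33.0% in WT, a ratio of 1.69, close to the 1.72 of the steady abundant rows. With the 253 lower rows taken out of both libraries, the steady rows held 23.7% in dek2 and 27.05% in WT. With the 100 most abundant rows of each library taken out, the 528 steady rows left held 24.1% in dek2 and 23.3% in WT, a ratio of 1.04. The 253 rows were chosen by their ratio, so that taking them out had to raise the WT share more than the dek2 share. The second removal also took out members. What the difference in share rests on was not tested.

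**Figure D1:**
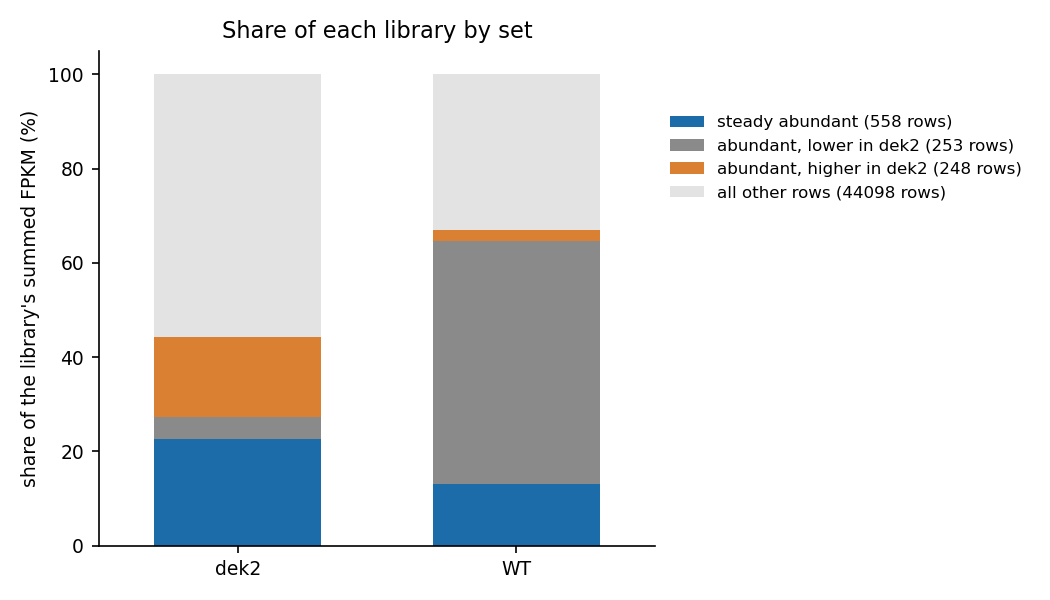
Share of each library's summed FPKM (vertical axis, %) in dek2 (left bar) and WT (right bar), split into steady abundant rows, abundant rows over 2-fold lower in dek2, abundant rows over 2-fold higher in dek2 and all other rows. The steady rows hold 22.6% in dek2 and 13.1% in WT, and the lower rows 4.81% in dek2 and 51.5% in WT. All other rows include those under 300 bp in span, at any level.

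Being within 2-fold was common at every level. Of 681 rows at 100 FPKM or more in both libraries after scaling, 558 (81.9%) were within 2-fold, 55 (8.08%) were over 2-fold higher in dek2 and 68 (9.99%) were over 2-fold lower. Over all 21016 rows of 300 bp or more at 1 FPKM or more in both, 74.6% were within 2-fold, 13.4% were higher and 12.0% were lower. Because the ratio defined the members, nothing is read from the difference between these shares. By the level of the lower library, the share within 2-fold was 61.7% at 1 to 3 FPKM, 76.1% at 3 to 10, 82.8% at 10 to 30 and 83.8% at 30 to 100 FPKM. It was 84.2% of 532 rows at 100 to 300 FPKM and 76.1% of 134 rows at 300 to 1000 FPKM. Above 1000 FPKM it was 53.3%, or 8 of 15 rows, with 5 of the others lower and 2 higher in dek2.

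**Figure D2:**
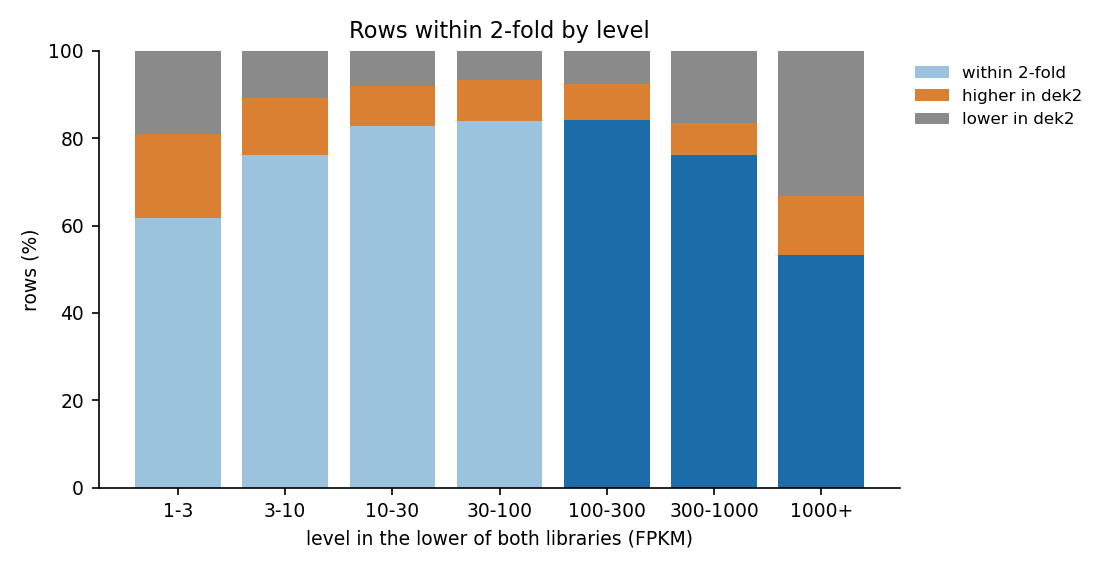
Share of rows (vertical axis, %) within 2-fold, higher and lower in dek2, by the level of the lower library in FPKM (horizontal axis), for rows of 300 bp or more on chromosomes 1 to 10. Dark blue marks the 3 classes that hold the steady abundant rows, with 84.2%, 76.1% and 53.3% within 2-fold.

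Among the members the scaled ratios lay on both sides of 1, within the limits set by the rule. The median log2 ratio was 0.13, the middle 50% lay between -0.20 and 0.43, and the extremes were -0.99 and 0.99. Within 1.1-fold lay 125 members and within 1.5-fold 432, or 77.4%. Without the 2-fold limit, 63.4% of the 681 abundant rows lay within 1.5-fold. The share was 60.6% of rows at 10 to 30 FPKM in the lower library and 62.1% at 30 to 100 FPKM. Of the 126 other members, 88 were more than 1.5-fold higher in dek2 and 38 more than 1.5-fold lower. The scaled dek2 value was above WT in 328 members and below it in 230. Without the 2-fold limit, the median log2 ratio was 0.02 at 10 to 30 FPKM in the lower library and 0.07 at 30 to 100. It was 0.14 at 100 to 300 FPKM, 0.02 at 300 to 1000 and 0.10 above 1000 FPKM. The rule used this ratio, so that no trait of the members is read from the counts by direction. The ratio nearest 1 was found on chromosome 5 at 146880877 to 146886034, with 348.6 FPKM in dek2, 232.0 FPKM after scaling, and 231.6 FPKM in WT.

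**Figure D3:**
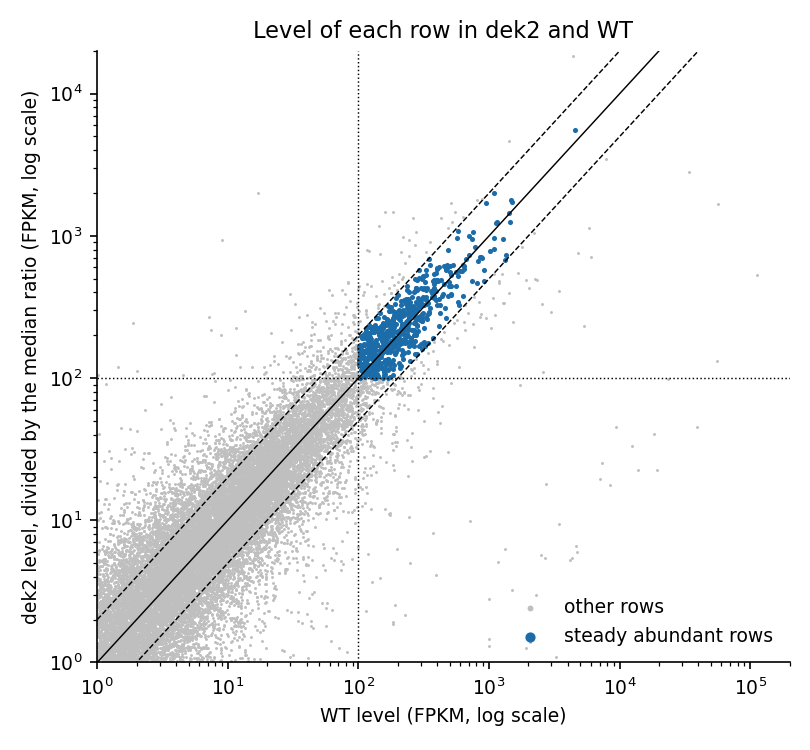
Level of each row in WT (horizontal axis) and in scaled dek2 (vertical axis), in FPKM on log scales, for rows at 1 FPKM or more in both. The solid line marks equal levels, dashed lines 2-fold, dotted lines 100 FPKM; the 558 steady abundant rows (blue) fill the band between the dashed lines above 100 FPKM.

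Most members stood just above the level limit. The deposited values had a median of 310.4 FPKM in dek2, with a range of 150.6 to 8266 FPKM, and a median of 188.5 FPKM in WT, with a range of 100.8 to 4507 FPKM. The lower library was under 200 FPKM in 341 members (61.1%), which held 8.08% of dek2 and 4.72% of WT. A further 107 members lay between 200 and 300 FPKM, 71 between 300 and 500 and 31 between 500 and 1000 FPKM. The 8 members at 1000 FPKM or more in both held 2.26% of dek2 and 1.20% of WT. The median log2 ratio of these 5 level classes, from low to high, was 0.12, 0.14, 0.19, -0.07 and 0.16. In each library 131 members made up 50% of the members' summed FPKM, and the 10 most abundant held 11.7% of it in dek2 and 10.7% in WT.

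The most abundant member stood apart from the others in both libraries. It lay on chromosome 1 at 38629919 to 38632624 and had 8266 FPKM in dek2, 5501 FPKM after scaling, and 4507 FPKM in WT, a log2 ratio of 0.29. It alone held 0.770% of dek2 and 0.395% of WT. It ranked 8 in dek2 and 23 in WT. Of the 22 rows above it in WT, 21 were over 2-fold lower in dek2. The remaining row, with a span of 114 bp, was the only one above it in both libraries, with 11360 FPKM in dek2 and 10993 FPKM in WT, and is no member because of its span. Of the 7 rows above it in dek2, 6 were over 2-fold higher there, 4 of them with no value in WT, and 3 of the 7 were under 300 bp in span.

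The next members by mean level were far less abundant and lay on several chromosomes. On chromosome 5 the locus at 14084192 to 14085595 had 2676 FPKM in dek2 and 1464 FPKM in WT (log2 ratio after scaling 0.28). On chromosome 2, at 2808176 to 2811018, the values were 2595 FPKM in dek2 and 1490 FPKM in WT (0.21). Both kept close to the median ratio of the libraries. The locus on chromosome 3 at 165765567 to 165768179 had 3010 FPKM in dek2 and 1095 FPKM in WT (0.87), near the upper limit. A pair of loci on chromosome 7 were close to WT after scaling, the first of them the closest of the 10 most abundant members. The first, at 165423393 to 165426172, had 2177 FPKM in dek2 and 1426 FPKM in WT (0.02), and the second, at 148962511 to 148969683, had 1882 FPKM in dek2 and 1457 FPKM in WT (-0.22).

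The remaining 4 of the 10 most abundant members included 1 with a lower scaled level in dek2. On chromosome 4, at 133130992 to 133134382, there were 2559 FPKM in dek2 and 939.8 FPKM in WT (log2 ratio 0.86). The locus on chromosome 9 at 1427242 to 1428578 had 1866 FPKM in dek2 and 1155 FPKM in WT (0.10), and that on chromosome 5 at 68048816 to 68051710 had 1837 FPKM in dek2 and 1131 FPKM in WT (0.11). The tenth, on chromosome 6 at 144915968 to 144916313, had 1424 FPKM in dek2 and 1285 FPKM in WT (-0.44), with a span of 345 bp. All 10 were higher in dek2 on the deposited values, and 8 of the 10 were higher after scaling. Together they held 2.64% of dek2 and 1.40% of WT. Of these 10 rows, those leading on chromosomes 4 and 5 shared their coordinate with another row.

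**Figure D4:**
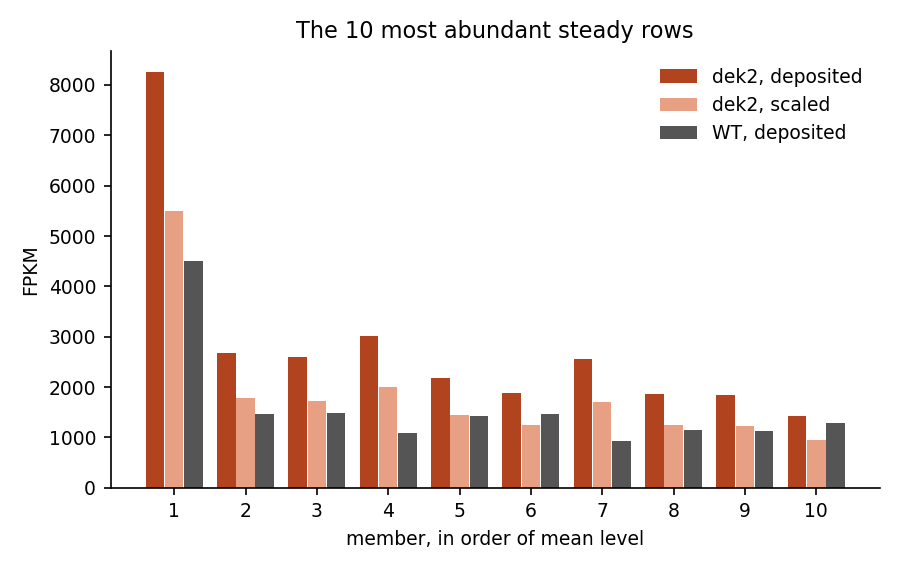
FPKM (vertical axis) of the 10 most abundant steady rows in order of mean level (horizontal axis), as deposited for dek2, after scaling for dek2, and as deposited for WT. The first has 8266 FPKM in dek2 and 4507 FPKM in WT, and all 10 are higher in dek2 before scaling.

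The leading members of chromosomes 8 and 10 were less abundant. On chromosome 8 the locus at 62786954 to 62791232 had 1008 FPKM in dek2 and 1328 FPKM in WT, and its scaled ratio of 0.505 was the lowest of all members. On chromosome 10 the locus at 4609837 to 4610572 had 1104 FPKM in dek2 and 698.2 FPKM in WT, a scaled ratio of 1.05. The most abundant members of the other chromosomes are among the 10 described above.

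The limits of the rule cut through a continuous range of values. Nearest the lower ratio limit after the chromosome 8 locus stood a row on chromosome 3 at 75140855 to 75143511, with 263.1 FPKM in dek2 and 340.5 FPKM in WT (ratio 0.514). Just outside were a row on chromosome 1 at 25742092 to 25746877 with 490.4 FPKM in dek2 and 653.7 FPKM in WT (0.499), and one on chromosome 4 at 74293085 to 74296607 with 811.8 FPKM in dek2 and 1091 FPKM in WT (0.495). At the upper limit, 862.2 FPKM in dek2 and 288.5 FPKM in WT (1.99) were found on chromosome 8 at 172671225 to 172674089, and 1038 FPKM in dek2 and 347.7 FPKM in WT (1.99) on chromosome 7 at 149952413 to 149954818. Just beyond it were rows on chromosome 5 at 84858053 to 84862186, with 2708 FPKM in dek2 and 886.5 FPKM in WT (2.03), and on chromosome 1 at 58370400 to 58372702, with 484.5 FPKM in dek2 and 157.8 FPKM in WT (2.04).

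The level limit was crowded as well. In the lower library 64 members had 100 to 110 FPKM, while 79 rows within 2-fold had 90 to 100 FPKM and were left out. The members nearest the limit lay on chromosome 6 at 64676765 to 64683561, with 150.6 FPKM in dek2, 100.3 FPKM after scaling, and 101.9 FPKM in WT, and on chromosome 7 at 136605464 to 136608890, with 150.7 FPKM in dek2, also 100.3 FPKM after scaling, and 137.0 FPKM in WT. Just under it were rows on chromosome 2 at 24987242 to 24990796, with 150.2 FPKM in dek2, 99.96 FPKM after scaling, and 173.4 FPKM in WT, and on chromosome 8 at 18686814 to 18689281, with 186.8 FPKM in dek2 and 99.7 FPKM in WT. Apart from their span, 34 rows under 300 bp met the rule, and so did 2 rows outside chromosomes 1 to 10.

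More members stood nearer the top of the row order in dek2 than in WT. A rank of 1 is the most abundant row of a library. The median rank was 506.5 in dek2 and 520.5 in WT, and 320 members stood closer to the top in dek2 against 238 in WT. The shift was seen mainly among the most abundant: 44 of the first 50 members were closer to the top in dek2, as were all 8 at 1000 FPKM or more in both and 28 of the 31 between 500 and 1000 FPKM. In the last class 13 of 31 were higher after scaling, and 15 of the 28 that stood closer to the top did so without a higher scaled level. Between 100 and 200 FPKM, 175 of 341 were closer to the top in dek2. The rule kept out abundant rows over 2-fold lower in dek2, which filled 41 of the first 50 places in WT. Abundant rows over 2-fold higher filled 20 of the first 50 in dek2. A rank depends on the rows around it, and the share over other rows of like level is not given. The counts are therefore a description and no trait of the members.

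Steady loci filled more of the dek2 top list. Of the 100 most abundant rows, 30 in dek2 and 15 in WT were members, and all 15 of the WT list were in the dek2 list too. They made up 15 of the 33 rows of any kind found in both lists. The remainder of the dek2 list included 33 abundant rows over 2-fold higher there and 29 rows under 300 bp in span, and the WT list included 63 abundant rows over 2-fold lower in dek2. Among the first 500 rows the members numbered 276 in dek2 and 270 in WT, and among the first 1000 they numbered 531 in dek2 and 537 in WT. The last member ranked 1111 in dek2 and 1048 in WT.

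Single members differed widely in rank between the libraries although they stayed within 2-fold. The locus on chromosome 2 at 218783361 to 218786574 had 295.7 FPKM in dek2 and 104.3 FPKM in WT, and ranked 537 in dek2 and 1018 in WT. A second row at this coordinate was also a member. At the other end, a locus on chromosome 10 at 67022545 to 67023487 had 156.5 FPKM in dek2 and 184.7 FPKM in WT and ranked 1062 in dek2 and 542 in WT. Across the 558 members the rank correlation of the levels in dek2 and WT was 0.79, which the limits on the ratio make high.

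The spans of the steady loci were shorter than those of less abundant steady loci and, at the median, longer than those of the abundant loci that changed. A span runs over introns and may cover more than 1 gene model, and it is not the transcript length by which FPKM is scaled. Over the 550 coordinates the median was 2974 bp and the middle 50% lay between 2041 and 4298 bp. The 5680 coordinates at 10 to 100 FPKM within 2-fold, here called moderate steady, had a median of 4472 bp, with the middle 50% from 2846 to 7142 bp. The abundant coordinates outside 2-fold had medians of 2116 bp (238 coordinates lower in dek2) and 2583 bp (242 higher in dek2). Unlike the members, these needed 100 FPKM only in the library where they were higher, so that the level limits of the sets differ. Expressed coordinates, here the 23661 of 300 bp or more that reached 1 FPKM in WT or in scaled dek2, had a median of 3396 bp.

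The sets differed in how their spans were distributed. Spans of 300 to 1500 bp made up 14.7% of the steady abundant coordinates, against 37.4% of the abundant lower, 25.6% of the abundant higher and 9.63% of the moderate steady ones. Spans of 1500 to 3000 bp made up 35.8%, against 21.0% of the abundant lower, 32.2% of the abundant higher, 17.5% of the moderate steady and 22.8% of all expressed coordinates. Spans from 1500 to 6000 bp covered 387 of the 550 (70.4%), against 46.2% of the abundant lower, 66.1% of the abundant higher, 57.7% of the moderate steady and 55.2% of all expressed coordinates. Those of 6000 to 20000 bp made up 13.3%, against 14.3% of the abundant lower, 7.44% of the abundant higher and 29.0% of the moderate steady coordinates. Only 9 members reached 20000 bp. These are shares over loci of 2 libraries, and they were not tested.

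**Figure D5:**
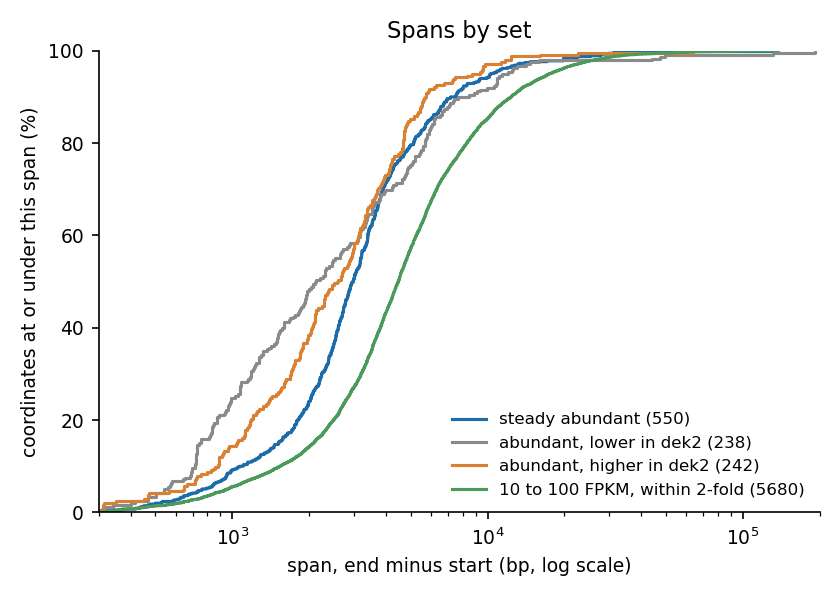
Cumulative share of coordinates (vertical axis, %) by span in bp on a log scale (horizontal axis), for steady abundant loci, abundant loci lower in dek2, abundant loci higher in dek2, and loci at 10 to 100 FPKM within 2-fold. The steady abundant curve has its median at 2974 bp, below that of the less abundant steady loci at 4472 bp and above those of the changed abundant loci at 2116 bp and 2583 bp.

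Within the members, level and ratio varied little with span. The 83 rows of 300 to 1500 bp had a median of 310.5 FPKM in dek2 and 190.4 FPKM in WT, with a median log2 ratio of 0.09. For the 200 rows of 1500 to 3000 bp the medians were 330.7 FPKM in dek2 and 203.3 FPKM in WT (0.14), and for the 192 rows of 3000 to 6000 bp they were 317.8 FPKM in dek2 and 185.6 FPKM in WT (0.12). The 74 rows of 6000 to 20000 bp had 271.6 FPKM in dek2 and 185.4 FPKM in WT (0.09). Span and level had a rank correlation of -0.08 in dek2 and -0.05 in WT over the 558 rows, too weak to order them.

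The longest members were not among the most abundant. The longest, on chromosome 1 at 31073181 to 31210660, spanned 137479 bp and had 463.6 FPKM in dek2 and 246.1 FPKM in WT (log2 ratio 0.33). It was followed by a locus on chromosome 9 at 1634036 to 1680793 with 218.6 FPKM in dek2 and 133.3 FPKM in WT (0.13). The 9 rows of 20000 bp or more had medians of 201.6 FPKM in dek2 and 130.0 FPKM in WT, and none of them exceeded the longest in either library. The shortest, on chromosome 1 at 165775016 to 165775333, spanned 317 bp and had 696.8 FPKM in dek2 and 803.8 FPKM in WT (-0.79). The next shortest, on chromosome 2 at 180745880 to 180746201, had 201.4 FPKM in dek2 and 162.9 FPKM in WT (-0.28).

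Several members shared a coordinate with another row. Of the 558, 419 (75.1%) had a coordinate of their own and 139 lay at 131 coordinates with 2 to 4 rows each. The shared share was 24.9%, against 24.6% over all expressed rows. Of all 39952 coordinates on chromosomes 1 to 10, 5 began before an earlier one ended, and no member coordinate overlapped another one. At these shared coordinates the member row held a median of 88.1% of the coordinate's summed FPKM in dek2 and 89.7% in WT, and 58 of the 139 held 90% or more in both. Of the 143 other rows there, 119 were expressed, of which 85 were within 2-fold, 24 over 2-fold higher in dek2 and 10 over 2-fold lower.

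Summing the rows of a coordinate kept most but not all of these loci within 2-fold. Of the 131 shared coordinates, 124 stayed within 2-fold and 7 did not, each of the 7 being higher in dek2. The 7 were singled out after their values were seen. The highest sum ratio was on chromosome 4 at 21158460 to 21161610, where the member row had 576.6 FPKM in dek2 and 199.9 FPKM in WT, and the second row had 700.1 FPKM in dek2 and 82.8 FPKM in WT (summed log2 ratio 1.59). On chromosome 8 a pair of such coordinates followed each other among the expressed loci. The first, at 83876977 to 83880502, had a sum of 679.4 FPKM in dek2 and 180.1 FPKM in WT (1.33), and the second, at 84127926 to 84131151, had a sum of 989.7 FPKM in dek2 and 239.3 FPKM in WT (1.46). Whether fragments were divided between the rows of a coordinate in the same way in both libraries was not tested, so that a single row at a shared coordinate is uncertain.

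The steady abundant loci were found on all 10 chromosomes. They numbered 96 rows on chromosome 1, 64 on chromosome 6, 62 each on chromosomes 4 and 8, 58 on chromosome 2, 54 on chromosome 5, 47 on chromosome 3, 42 on chromosome 7, 41 on chromosome 9 and 32 on chromosome 10. Their coordinates made up 2.32% of the 23661 expressed ones, with the lowest share of 1.75% on chromosome 3 and the highest of 3.34% on chromosome 6. The median log2 ratio per chromosome lay between -0.05 on chromosome 7 and 0.21 on chromosome 10. Higher after scaling were 18 of 42 members on chromosome 7 and 27 of 32 on chromosome 10, next to 328 of all 558. These chromosomes are the extremes of 10 and were named after their values were seen. The difference was not tested, and the share over all rows of a chromosome is not given here. The members of chromosome 1 held 4.39% of dek2 and 2.54% of WT, the most of any chromosome, and those of chromosome 10 held 0.979% of dek2 and 0.521% of WT, the least.

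Along the chromosomes the members lay in shares close to those of all expressed loci. With each chromosome cut into 5 equal parts up to its last listed coordinate, 136, 63, 55, 109 and 187 of the 550 member coordinates lay in these parts, from the first to the last. For all expressed loci the numbers were 5798, 2640, 2521, 4752 and 7950 of 23661. The first part held 24.7% of the members and 24.5% of the expressed loci, and the last part 34.0% of the members and 33.6% of the expressed loci. The middle of the chromosomes thus held few members, as it held few expressed loci. Of 210 windows of 10 Mb, 170 held a member, with a median of 2. The fullest was the first 10 Mb of chromosome 5, with 19 members among 330 expressed loci. Their values lay between 180.0 and 917.1 FPKM in dek2, with a median of 332.1, and between 107.2 and 741.1 FPKM in WT, with a median of 206.7. The highest share among windows with 30 or more expressed loci was 9.52%, or 6 of 63, between 80 and 90 Mb on chromosome 8.

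Some members stood side by side. Of the 550 coordinates, 49 (8.91%) were next to another member among the expressed loci, in 23 pairs and 1 run of 3. Of the 23111 other expressed coordinates, 1032 (4.47%) were next to a member. This difference was not tested. The run lay on chromosome 6 between 136703064 and 136883005. Its first locus had 1506 FPKM in dek2 and 703.4 FPKM in WT, the second 913.7 FPKM in dek2 and 410.1 FPKM in WT, and the last 501.7 FPKM in dek2 and 231.1 FPKM in WT. The 3 log2 ratios of 0.51, 0.57 and 0.53 were alike although the levels differed. The most abundant member formed a pair with a locus 8714 bp further on, at 38641338 to 38642387, which had 916.8 FPKM in dek2 and 455.1 FPKM in WT (0.42).

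Closeness did not always go with a like ratio. The 3 closest pairs, picked by distance after the data were seen, were 22, 687 and 1405 bp apart. In the first, on chromosome 1 between 22936908 and 22941362, the members had 864.3 FPKM in dek2 and 908.5 FPKM in WT (log2 ratio -0.66), and 661.2 FPKM in dek2 and 504.2 FPKM in WT (-0.20). In the second, on chromosome 2 between 217276426 and 217281219, the signs were opposite. Its first locus had 397.7 FPKM in dek2 and 471.0 FPKM in WT (-0.83), and its second 309.9 FPKM in dek2 and 122.1 FPKM in WT (0.76). In the third, on chromosome 3 between 127023556 and 127030070, the log2 ratios were -0.07 and -0.82.

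The direct neighbours of the members were within 2-fold about as often as all rows. Of the neighbouring loci that were no members, 926 rows had 1 FPKM or more in both libraries. Their medians were 12.5 FPKM in dek2 and 8.26 FPKM in WT. The rule set the level of the members, so these medians are not compared with theirs. Within 2-fold were 694 of them (74.9%), next to 74.6% over all rows at this level, and their median log2 ratio was 0.04. Within 100 kb, 32 of the 550 member coordinates (5.82%) had a row that was abundant and over 2-fold higher in dek2, 9 of them at the same coordinate. The same held for 195 of the 5680 moderate steady coordinates (3.43%), 7 of them overlapping such a row. A row that was abundant in WT and over 2-fold lower in dek2 lay within 100 kb of 13 member coordinates (2.36%). It lay as near to 198 moderate steady coordinates (3.49%). Of these, 23 moderate steady and 0 member coordinates overlapped such a row. These shares were not tested.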

How the data were processed

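Endosperm RNA of dek2 and WT was measured in 1 deposited table each. The authors deposited FPKM values, per the file headers, 1 per row, with a chromosome, start and end. Bowtie 0.12.2 was used per the submitters' processing notes. The FPKM program, genome build and annotation remain not given in the sources used here. Positions are therefore printed as deposited, no gene name was assigned and no sequence was read. Both tables list the same 45157 rows in the same order and were paired line by line. The value 1e-05 (3690 rows in dek2, 6118 in WT) was taken as no value. Absolute depth is unknown, so no counting interval is given.

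From these values the median ratio (1.503, or 0.59 on the log2 scale), ratios without a pseudocount, ranks, shares and distances were computed in Python 3.11.15 with pandas 2.3.3 and numpy 2.4.6. Of these steps, only the scaling and the rule that selects the members were tested on simulated data. With n = 1 per genotype no test was run. Loci named are the 10 most abundant members, the leading member of each chromosome, those nearest each limit, the longest and shortest, the one with a ratio nearest 1, and runs of 3 or more neighbouring members. Further loci named for rank changes, closeness or summed rows were chosen after their values were seen. The members and the rules were chosen with earlier results of these data known. Alternatives changed the scaling, the limits, the pseudocount and the treatment of shared coordinates.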

Additional observations from a re-analysis of the deposited data

How the results depend on the processing

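The number of steady abundant rows stayed within 1.5 times of 558 under 10 of 13 alternatives and moved only with the level limit, to 1298 rows at 50 FPKM, 217 at 200 FPKM and 15678 at 1 FPKM. On the deposited values without scaling there were 551 rows, but only 406 of the 550 member coordinates were among them. The share of abundant rows within 2-fold, 81.9%, was 69.3% on the deposited values, 76.7% at 200 FPKM and 74.6% at 1 FPKM, 63.4% with a limit of 1.5-fold and 92.2% with 3-fold. It otherwise lay between 81.5% with no span limit and 83.4% at 50 FPKM. These alternatives kept many of the same rows, so that their closeness is no measure of error. The share of the libraries held by the members was higher in dek2 than in WT under the 12 alternatives that kept every row in the library totals. Except on the deposited values, these alternatives also selected on the scaled ratio, so that this direction was largely set in advance. The order reversed, with 23.7% in dek2 and 27.05% in WT, when the abundant lower rows, chosen by their ratio, were taken out of the totals. Without the 100 most abundant rows of each library, some of them members, the share was 24.1% in dek2 and 23.3% in WT. Both alternatives were added after the data were seen. It was 18.7% in dek2 and 14.2% in WT on the deposited values, and 22.5% in dek2 and 12.9% in WT when scaled on the sums that exclude the 100 most abundant rows. With rows that have their own coordinate it was 16.5% in dek2 and 9.69% in WT, with coordinates summed 24.3% in dek2 and 14.2% in WT. A level of 50 FPKM gave 31.2% in dek2 and 18.3% in WT, and 200 FPKM gave 14.5% in dek2 and 8.39% in WT. With no span limit the shares were 26.4% in dek2 and 15.7% in WT, and with 500 bp 22.1% in dek2 and 12.8% in WT. A limit of 1.5-fold gave 17.0% in dek2 and 10.2% in WT, and 3-fold gave 27.2% in dek2 and 16.5% in WT. On the deposited values the shares moved in opposite directions with a changed set of rows, as counted above. The median log2 ratio lay between 0.08 and 0.14 in the alternatives that kept a scaling. On the deposited values it was 0.39, where the median row itself stood at 0.59, so that this value is not like the others. The median span lay between 2758 and 3406 bp. No paired analysis was possible because each genotype has 1 sample, and no replicate could be left out. Depth is unknown, so the precision of rows near 100 FPKM cannot be given.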
